A study of Oncorhynchus mykiss with 24 samples.

Results

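Liver mRNA levels were compared between domesticated rainbow trout (D) and wild trout of about the same size (Ws). The members are the arrays whose labels name the fish channel as domesticated liver or as wild size-matched liver, 6 arrays of D and 6 of Ws, which make 12 of the 24 arrays of the study. The other 12 carried a wild by domesticated hybrid (W/D) and wild fish of the same age as D (Wa). The D fish came from a commercial strain of Campbell Lake Trout Farms that had been selected for growth, and all 6 were offspring of a single cross made in 2007. The Ws fish were of the wild Pennask Lake strain, came from randomly mated crosses made in 2006, and were therefore a year older than D. Both groups were reared in well water under the same culture conditions, were fed to satiation and were fasted before sampling. D and Ws thus differed in strain, age and family structure at once, and these cannot be told apart here. The spread between D fish is a spread within 1 family, and a p-value below measures only the spread between these fish.

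On each array the RNA of a single fish was labelled with Cy5 and set against a Cy3-labelled pool of RNA from 6 wild fish of the Ws type, and the dyes were not swapped. All levels below are log2 ratios of the fish to that pool, so a value of 1 is a level 2-fold that of the pool. A log2 fold change is the difference of group means, D minus Ws, and its standard error (SE) and adjusted p come from limma's moderated test over the 4 groups, two-sided, with Benjamini-Hochberg adjustment over all oligos tested. An oligo was called when its adjusted p was at most 0.05 and its fold change at least 2. An oligo is a single spot, and several oligos can carry the same description and target the same mRNA or close copies of it. Trout descend from an ancestor with a duplicated genome, so oligos of 1 description can also read different gene copies. Descriptions were available for the 486 spots that the study had itself listed as different between these fish, so the direction of a described group is not independent evidence. Of these, 436 were tested, with 146 called higher in D (33.5%) and 58 called lower in D (13.3%) and a median log2 fold change of 0.60, and the counts of a described group stand against these shares. Each spot carries a column and row position as its name (for example C216R135), and the oligo sequences were not used here.

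Liver makes most of the proteins of blood plasma, including albumin, apolipoproteins, fibrinogen and complement, and it handles lipids, sugars, nucleotides, heme and foreign compounds. In fish it also takes part in innate defence through secreted lectins, lysozyme and antimicrobial peptides. Liver samples also hold blood, and the red cells of fish keep a nucleus and carry mRNA. In such bulk samples fewer cells of a type and less RNA per cell cannot be told apart.

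On an array, the median Cy5 signal was between 214 and 246 in D and between 198 and 204 in Ws, and the groups did not overlap (exact permutation test over 924 splits, two-sided, adjusted p = 0.00649). The Cy3 channel, which held the same pool on every array, had medians between 171 and 196 in D and between 163 and 173 in Ws (exact permutation test, adjusted p = 0.00649), so the D arrays were brighter in the common reference as well. With saturated spots left out, the quality flag marked between 160 and 641 oligos on a D array and between 963 and 1137 on a Ws array. Between 33.6% and 44.4% of the oligos on a D array had a Cy5 signal above the local background by 2 of its standard deviations, against 39.2% to 43.0% on a Ws array (exact permutation test, adjusted p = 0.0779). A Cy5 signal of 300 or more, the level used to filter oligos for the test, was reached by 21.5% to 36.4% on a D array. On a Ws array 22.3% to 24.2% reached it (means 27.1% and 23.2%, exact permutation test, adjusted p = 0.0312). Saturated oligos numbered 74 to 131 on a D array and 50 to 82 on a Ws array (exact permutation test, adjusted p = 0.00649). Each of the 6 slides held 1 fish of every group in a fixed order, so position on the slide cannot be told apart from group. The part of these signal differences in the results was not tested.

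Of 43689 oligos, 8764 entered the test (20.1%). Between D and Ws, 638 oligos (7.28%) differed at an adjusted p of at most 0.05, with 392 higher and 246 lower in D, and 1899 had an unadjusted p of at most 0.05. With the 2-fold threshold added, 301 oligos (3.43%) were called, 212 higher in D (2.42%) and 89 lower in D (1.02%). Higher levels in D thus made up 70.4% of the calls. The median log2 fold change over all tested oligos was -0.01. Loess normalisation centres the log2 ratios within each array, so this median is largely set by the method. The absolute log2 fold change of the called oligos had a median of 1.28 and reached 3.75, and 45 of them differed 4-fold or more, 34 higher and 11 lower in D. Fish within the groups varied to a like extent, with a median standard deviation between fish of 0.38 in D and 0.38 in Ws.

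**Figure D1:**
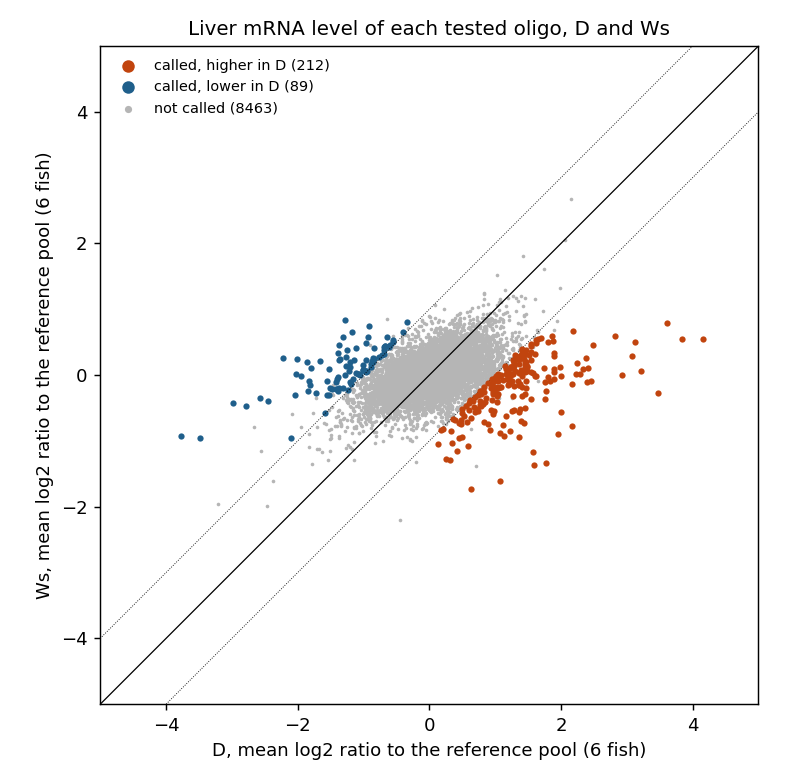
Mean log2 ratio to the reference pool over the 6 D fish (horizontal axis) and the 6 Ws fish (vertical axis) for each of the 8764 tested oligos. The solid line marks equal means and the dotted lines a 2-fold difference; the 212 oligos called higher in D lie below the lines and the 89 called lower in D above them.

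For 258 of the 7492 oligos with a value for every fish (3.44%), the 6 D fish lay entirely outside the range of the 6 Ws fish, above it for 158 (2.11%) and below it for 100 (1.33%). Separation was more common in the described oligos, which the study had listed as different, at 131 of 348 with a value for every fish. Among the called oligos, 88 of those higher and 38 of those lower in D were separated in this way. With the replicate number taken as the slide, the difference between its D and Ws fish had the same sign on all 6 slides for 955 oligos (12.7%). Among called oligos with values on all slides, this held for 136 of 160 that were higher in D and for 58 of 77 that were lower. The calls rest on the same fish, so the counts of separation and of equal sign among them are in part set by the call. Of the 52 spots named by rule below, 14 were above the background on 3 or fewer of the 6 arrays of a group, 7 of them in Ws and 7 in D, and the sizes of several of these differences moved with the background correction. Those dim in D, on 3 of 6 arrays each, included the spots C092R028 (serine protease 27), C204R169 (charged multivesicular body protein 2b), C227R073 (lipoprotein lipase) and C237R012 (Ig mu chain). To pass the signal filter, an oligo had to be bright on every array of some group. Of all 8764 tested oligos, 1567 passed in D but not in Ws, and 1140 passed in Ws but not in D. Among the calls, 86 of the oligos called higher passed in D but not in Ws, whereas 44 of those called lower passed in Ws but not in D. Among the 5254 oligos that passed in both groups, 132 (2.51%) were called, 95 higher and 37 lower in D.

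The largest fitted difference was that of SLC28A3, a solute carrier that takes nucleosides into cells. Spot C216R135 was between 2.40 and 4.26 in D (median 3.40), against -0.90 to 0.26 in Ws (median -0.26). All 6 D fish were high, and in Ws the spot stood above the background on only 1 of 6 arrays, so that the size of the difference rests on a level near background. The log2 fold change was 3.75 (SE 0.31, adjusted p = 1.38e-09), and 2.54 to 5.13 over the other processing settings. A second SLC28A3 spot (C055R039), above the background on 2 of 6 Ws arrays, was between 2.81 and 3.81 in D and between -0.48 and 0.68 in Ws, with a log2 fold change of 3.15 (SE 0.24, adjusted p = 5.47e-10). GDP-L-fucose synthetase (C015R047), which completes the activated form of fucose, was at 3.91 to 4.57 in the 5 D fish with a value (median 4.04), against 0.05 to 1.36 in Ws (median 0.29). It was called at a log2 fold change of 3.61 (SE 0.28, adjusted p = 3.02e-09), with no D fish within the range of Ws.

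The spot of a probable polypeptide N-acetylgalactosaminyltransferase 8 (C224R132), of the enzyme family that starts O-linked glycosylation, was between 2.26 and 4.02 in D (median 2.79), against -0.56 to 0.51 in Ws (median -0.03). Its log2 fold change was 2.93 (SE 0.28, adjusted p = 1.78e-08), and it was above the background on 2 of 6 Ws arrays. The spot with the domain of LEAP-2 (C260R076), a liver-expressed antimicrobial peptide, was high in every D fish, at 3.23 to 4.06 (median 3.62), while the Ws fish were spread from -1.40 to 2.30 (median 1.06). It was called at a log2 fold change of 2.82 (SE 0.55, adjusted p = 0.00148), and it passed the signal filter in D but not in Ws. Epoxide hydrolase 2 (C066R156), which opens epoxides of fatty acids, was at 2.68 to 3.57 in D (median 3.06) and at -0.82 to 2.22 in Ws (median 0.13), a log2 fold change of 2.78 (SE 0.49, adjusted p = 0.000416). A second spot of this enzyme (C099R107) had a log2 fold change of 1.57 (SE 0.32, adjusted p = 0.00255), again with no overlap of the fish.

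Enhancer of rudimentary homolog (C100R069), a small conserved nuclear protein, was between 1.21 and 2.63 in D (median 2.01), against -0.74 to -0.40 in Ws (median -0.57). It was above the background on 1 of 6 Ws arrays, and its log2 fold change was 2.58 (SE 0.25, adjusted p = 2.29e-08), or 1.59 to 3.73 over the other settings. Peroxisomal 3,2-trans-enoyl-CoA isomerase (C003R040), which prepares unsaturated fatty acids for beta-oxidation, was at 1.84 to 2.94 in D (median 2.59) and at -1.30 to 1.16 in Ws (median -0.13), a log2 fold change of 2.54 (SE 0.46, adjusted p = 0.000632). Brain protein 44 (C032R027), a subunit of the carrier that brings pyruvate into mitochondria, was between 1.78 and 3.42 in D and between -0.28 and 0.62 in Ws (log2 fold change 2.24, SE 0.36, adjusted p = 0.000152). It was above the background on 5 of 6 D arrays and 1 of 6 Ws arrays.

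Among the mRNAs that were lower in D, acyl-CoA-binding protein (C209R038), which carries fatty acyl-CoA in the cytosol, differed most. It was at -3.99 to -3.43 in D (median -3.79), with all 6 D fish close together, and at -2.62 to 0.49 in Ws (median -0.95). The log2 fold change was -2.85 (SE 0.36, adjusted p = 3.81e-06), and the spot passed the signal filter in Ws but not in D. ATP-sensitive inward rectifier potassium channel 10 (C049R050) was between -2.90 and -0.39 in D (median -2.32), against -0.24 to 1.01 in Ws (median 0.09), and fell by 2.26 on the log2 scale (SE 0.32, adjusted p = 2.36e-05). Aquaporin-8 (C218R007), a water channel, was at -2.79 to -2.0 in D (median -2.45) and at -0.94 to 0.22 in Ws (median -0.46), and fell by 2.05 (SE 0.20, adjusted p = 1.78e-08).

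Small nuclear ribonucleoprotein F (C186R125), a core protein of the spliceosome, showed the least spread of the named mRNAs in both groups, with -1.80 ± 0.15 in D and 0.11 ± 0.15 in Ws (SD, n = 6 each). It fell by 1.90 on the log2 scale (SE 0.17, adjusted p = 4.32e-09), and was above the background on 3 of 6 D arrays. Charged multivesicular body protein 2b (C204R169), a part of the machinery that sorts membrane proteins into endosomes, was at -1.70 to -0.94 in D, against -0.04 to 1.2 in Ws (log2 fold change -1.90, SE 0.27, adjusted p = 2.14e-05). Methyltransferase-like protein 4 (C204R011) was between -2.80 and -1.35 in D and between -0.59 and 0.57 in Ws (log2 fold change -2.04, SE 0.29, adjusted p = 2.52e-05). Thrombospondin-3b (C066R037), a protein of the extracellular matrix, had a log2 fold change of -1.83 (SE 0.26, adjusted p = 2.24e-05). Its D fish reached from -1.88 to -0.68 (median -1.43) and its Ws fish from -0.39 to 0.90 (median 0.56), so that the groups were separate by a narrow gap.

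**Figure D2:**
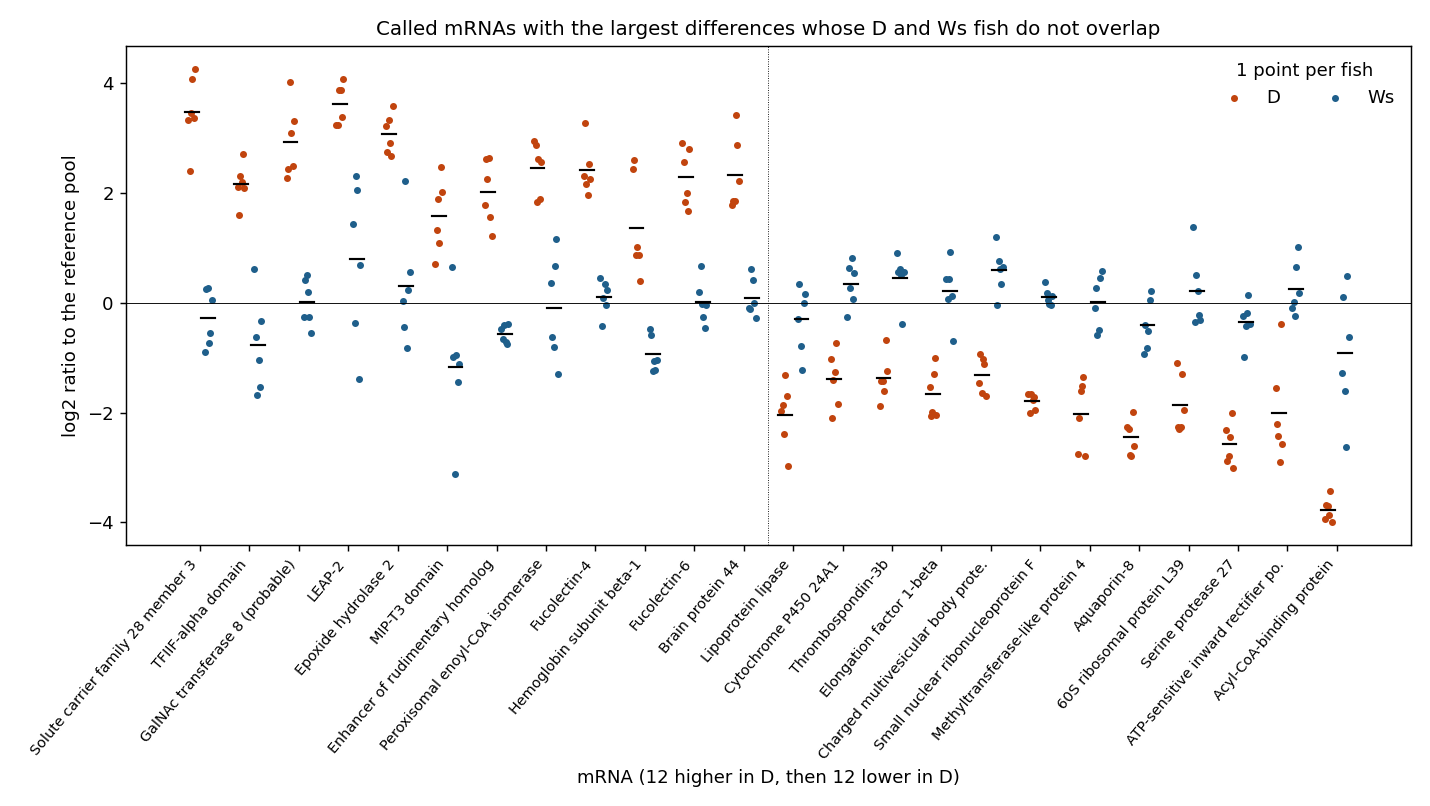
Log2 ratio to the reference pool of each D fish (orange, left) and each Ws fish (blue, right) for the 12 described mRNAs higher in D and the 12 lower in D with the largest log2 fold changes among called mRNAs whose fish did not overlap; black bars are group means. SLC28A3 reached 4.26 in D, and acyl-CoA-binding protein was at -3.43 or below in all D fish. SLC28A3, TFIIF-alpha, GalNAc transferase 8, LEAP-2, enhancer of rudimentary, fucolectin-4 and brain protein 44 passed the signal filter in D but not in Ws. Passing in Ws but not in D were acyl-CoA-binding protein, serine protease 27, ribosomal protein L39, aquaporin-8 and small nuclear ribonucleoprotein F. The same held for charged multivesicular body protein 2b, elongation factor 1-beta, thrombospondin-3b and lipoprotein lipase. Each thus met it only in the higher of D and Ws.

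Hemoglobin mRNAs were higher in D. The beta chains and alpha chains of hemoglobin carry oxygen in red cells, and 35 of the described spots were hemoglobin subunits. Of the 20 that were tested, 15 were called higher in D (75%, against 33.5% of all described oligos) and 0 lower (against 13.3%). Their median log2 fold change was 1.45, against 0.60 over all described oligos, and 17 passed the adjusted p alone. At an unadjusted p of at most 0.05, 19 were higher and 0 lower by limma's test. The 6 tested spots of hemoglobin subunit beta-1 were all called, at log2 fold changes between 1.28 and 2.30, as were 8 of the 11 spots of hemoglobin subunit beta, which lay between 0.71 and 1.87. The alpha-D spot (C062R154) stood apart, at 0.06 to 0.25 in D and -0.71 to 0.86 in Ws (log2 fold change -0.01). The other 15 hemoglobin spots, 9 of them alpha chains, did not pass the filter. They were too often under the quality flag, and in a fit with flagged spots as measured and no filter their log2 fold changes were between 1.15 and 1.49, with all 15 past both thresholds.

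The hemoglobin beta-1 spot with the largest difference (C060R037) was between 0.39 and 2.60 in D (median 0.94), against -1.25 to -0.48 in Ws (median -1.06). Its log2 fold change was 2.30 (SE 0.31, adjusted p = 1.71e-05). D fish were not alike. Averaged over the 4 beta and beta-1 spots with a value in every fish, D replicates 1 and 2 were at 2.46 and 2.05, the other D fish were between 0.27 and 0.69, and the Ws fish were between -1.19 and -0.40. Leaving out any single fish left between 13 and 17 hemoglobin spots called, all higher in D. As markers of red cells, the hemoglobin spots and carbonic anhydrase (36 spots, 21 tested, 16 called higher) had a summed Cy5 signal of 610562 to 1341540 in D and 306666 to 550387 in Ws, so that every D fish was above every Ws fish. The part of red cells in the hemoglobin result was not tested.

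The list of heme and iron handling, which also held carbonic anhydrase, a red cell marker above, had 8 tested spots. Of these, 4 were called higher and 0 lower in D. These shares were 50% and 0%, against 33.5% and 13.3% of all described oligos. The median log2 fold change was 0.84, with 5 higher and 1 lower at an unadjusted p of at most 0.05 by limma's test. Coproporphyrinogen III oxidase (C157R142), an enzyme of heme synthesis, was at 0.68 to 1.66 in D (median 1.15), against -0.43 to 0.27 in Ws (median -0.13), a log2 fold change of 1.35 (SE 0.24, adjusted p = 0.000545). Carbonic anhydrase (1.38), the middle subunit of ferritin (1.27), which stores iron, and natural resistance-associated macrophage protein (1.09), an iron transporter, were called as well, with overlap between the fish. The first enzyme of heme synthesis, 5-aminolevulinate synthase (0.59), and heme oxygenase (-0.35), which breaks heme down, were not called. Flavin reductase (C103R042) had the lowest log2 fold change of the list, at -0.85, and was not called either. With the adjusted p alone, 1 spot of the list was lower in D.

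Cu-Zn superoxide dismutase, which turns superoxide into hydrogen peroxide, was measured by 14 spots, and all 14 were called higher in D, at log2 fold changes between 1.52 and 2.09 (median 1.83). For 13 of the 14 the D and Ws fish did not overlap, as for 131 of 348 described oligos with a value for every fish. Of all described oligos, 33.5% were called higher. The spot with the smallest adjusted p (C116R104) was at 0.82 to 1.89 in D (median 1.22) and at -1.12 to 0.04 in Ws (median -0.51), a log2 fold change of 1.82 (SE 0.27, adjusted p = 5.74e-05). Averaged over all 14 spots, the D fish were between 0.99 and 2.06 and the Ws fish between -0.56 and -0.02. D replicates 1 and 4 were the highest, at 2.06 and 1.98. Leaving out any single fish kept 14 spots called, and 12 stayed called when D replicates 4 and 6, whose titles carry the same fish code, were both left out. Under the filter on all 24 arrays only 4 of these spots remained to test, and under that on all arrays of both D and Ws 8 did, and all of them were called higher.

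Glutathione and thioredoxin proteins, which keep other proteins reduced and conjugate foreign compounds, had 24 tested spots. Of these, 10 were called higher and 1 lower in D (41.7% and 4.17%, against 33.5% and 13.3% of all described oligos). The median log2 fold change was 0.92. All 6 spots of glutathione transferase omega-1 were called, within the narrow span of 1.23 to 1.45, and for each of them every D fish was above every Ws fish. Of the described oligos with a value for every fish, 131 of 348 did not overlap, in either direction. Averaged over the omega-1 spots the D fish were at 0.88 to 1.67 and the Ws fish at -0.45 to 0.25. Glutathione S-transferase P 1 (C138R089) had the largest difference, with D between 1.05 and 1.99 (median 1.37), against -1.47 to -0.32 in the 5 Ws fish with a value (median -0.70), and a log2 fold change of 2.16 (SE 0.26, adjusted p = 2.05e-06). Thioredoxin reductase 3 (1.02), microsomal glutathione S-transferase 3 (1.04) and 1 of 3 spots of methionine-R-sulfoxide reductase B1 (1.16) were also called. Not every transferase moved this way, since both theta-1 spots (-0.64 and -0.74) and glutathione S-transferase 3 (-0.65) had negative values and were not called. Thioredoxin domain-containing protein 12 (C228R060) was called lower, with D at -2.46 to -0.69 (median -1.01) and Ws at -0.88 to 0.59 (median 0.15), a log2 fold change of -1.28 (SE 0.27, adjusted p = 0.00261).

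**Figure D3:**
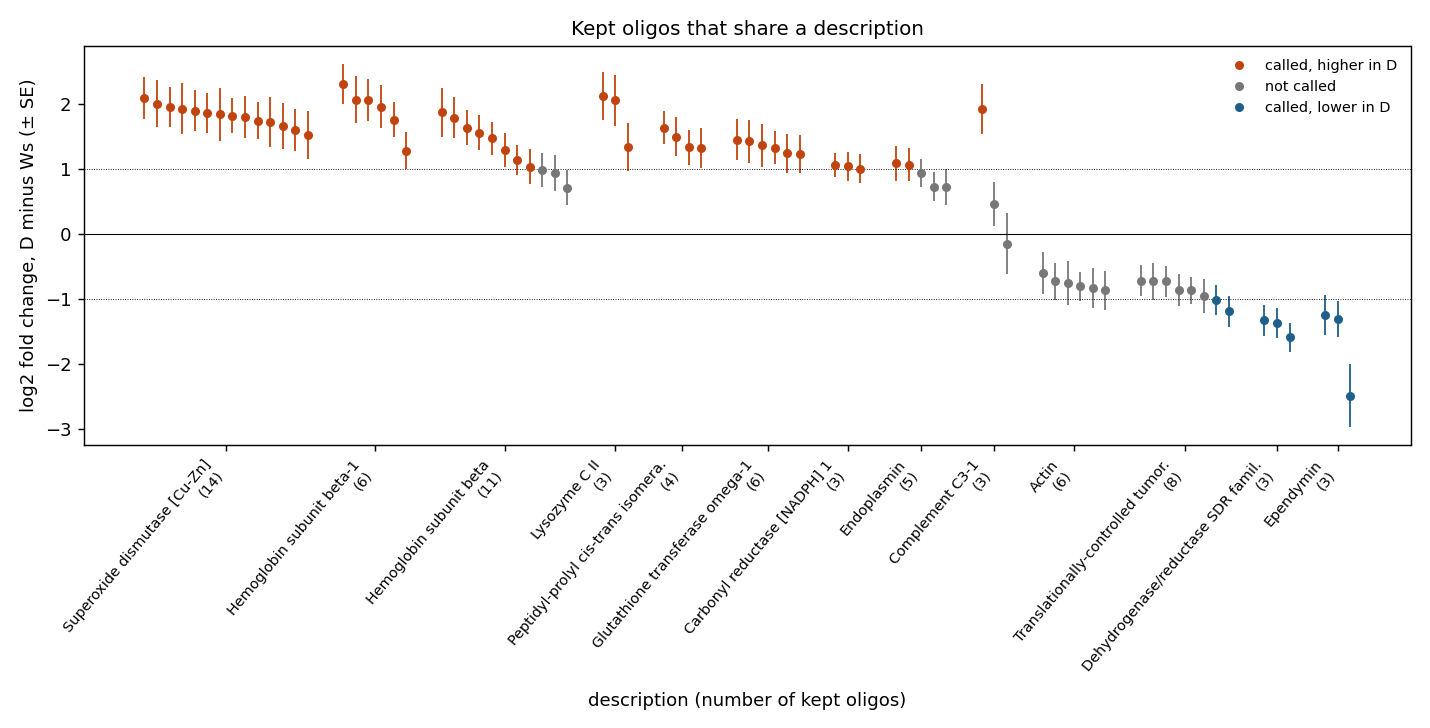
Log2 fold change (D minus Ws, with its SE) of each tested oligo, grouped by description, for a selection of the families with 3 or more tested oligos. Families not shown include several without any call, among them galectin-9 and nicotinamide riboside kinase 2. All 14 superoxide dismutase and all 6 glutathione transferase omega-1 oligos lie above the dotted line at 1, and the 6 sarcomeric actin oligos lie between -0.86 and -0.60 without being called.

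Chaperones and transport proteins of the endoplasmic reticulum (ER), where secreted proteins fold, had 16 tested spots in all. Of these, 6 were called higher in D (37.5%, against 33.5% of all described oligos) and 1 lower (the thioredoxin domain-containing protein 12 given above), with a median log2 fold change of 0.93, and 11 passed the adjusted p with higher levels in D. The 5 spots of endoplasmin, the heat shock protein of the ER, were between 0.73 and 1.09, 2 of them called. Both tested calreticulin spots (0.85 and 0.99) stayed just under 2-fold. Another calreticulin spot (C130R092) did not pass the filter. With flagged spots as measured and no filter, its log2 fold change was 1.11, past both thresholds. Derlin-1, which draws misfolded proteins out of the ER, had a log2 fold change of 1.08 (SE 0.24, adjusted p = 0.00401). Cysteine-rich with EGF-like domain protein 2 (C060R138), an ER stress protein, was at 1.01 to 1.59 in D (median 1.24), against -0.17 to 0.55 in the 5 Ws fish with a value (median 0.11). It was called at 1.12 (SE 0.23, adjusted p = 0.00258). Because several of these values lie close to 2-fold, the list moved with single settings, and without D replicates 4 and 6 only 2 spots were called higher, against 10 with the log2 ratios deposited by the authors. In mitochondria, all 4 spots of the mitochondrial peptidyl-prolyl cis-trans isomerase, a folding enzyme, were called higher at 1.32 to 1.63.

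Innate defence proteins had 23 tested spots of 27, with 10 called higher and 1 lower in D (43.5% and 4.35%, against 33.5% and 13.3% of all described oligos; median log2 fold change 0.82). Lectins that bind fucose were among them. Fucolectin-4 (C224R024) was at 1.95 to 3.26 in D (median 2.28), against -0.42 to 0.45 in Ws (median 0.16), a log2 fold change of 2.31 (SE 0.22, adjusted p = 1.78e-08). It was above the background on 2 of 6 Ws arrays. Fucolectin-6 (C220R118) was at 1.68 to 2.90 in D (median 2.28) and at -0.46 to 0.67 in Ws (median -0.03), a log2 fold change of 2.28 (SE 0.26, adjusted p = 4.95e-07). Fish-egg lectin (2.36, SE 0.48, adjusted p = 0.00201) was called with overlap, as 1 Ws fish reached 0.82 while the Ws median was -2.39. All galectin-9 and galectin-2 spots stayed uncalled, with log2 fold changes between -0.68 and 0.12.

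The 3 spots of lysozyme C II, an enzyme that lyses bacterial walls, were called higher in D at 1.34 to 2.12. Averaged over the 2 spots with a value in every fish, D was between 1.65 and 2.88 and Ws between -0.93 and 1.63. The Ws fish were spread widely in this mRNA, with replicates 4 and 6 at 1.63 and 1.26 and replicates 2, 3 and 5 between -0.93 and -0.53. Leukocyte cell-derived chemotaxin 2, a secreted protein that attracts neutrophils in mammals, had 1 spot called (C134R121, log2 fold change 2.69, SE 0.62, adjusted p = 0.00676, with values in only 3 Ws fish) and 1 that was not (C164R142, 1.41, adjusted p = 0.18). Complement was mixed. Complement C3-1, the central complement protein, had 1 spot called higher (C262R149, 1.92, SE 0.38, adjusted p = 0.0019) and a pair of spots that were not, at 0.46 and -0.15. Complement C4-A (C197R020) was called lower, at -1.17 to -0.42 in D (median -0.68) and 0.07 to 0.57 in Ws (median 0.28), a log2 fold change of -1.02 (SE 0.19, adjusted p = 0.000712). This call is close to the 2-fold threshold and was lost without D replicate 4 (-0.93), D replicate 6 (-0.98) or Ws replicate 1 (-0.97).

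Immunoglobulin mRNAs, made by B cells and plasma cells, did not move in 1 direction. The list of immunoglobulin and adaptive immunity had 6 tested spots, with 3 called higher and 1 lower in D. These shares were 50% and 16.7%, against 33.5% and 13.3% of all described oligos. Both spots of the Ig lambda chain constant region were called higher in D. C025R106 was at 0.98 to 1.88 in D (median 1.39), against -0.13 to 0.71 in Ws (median 0.32), with a log2 fold change of 1.08 (SE 0.21, adjusted p = 0.00148), and C113R056 had a log2 fold change of 1.25. The call of C025R106 was lost without D replicate 4 (0.98) or Ws replicate 5 (0.99). The membrane-bound form of the Ig mu chain (C237R012) was called lower, with D at -1.46 to 0.27 (median -1.05) and Ws at 0.04 to 1.31 (median 0.86), a log2 fold change of -1.66 (SE 0.37, adjusted p = 0.00454). A second spot of that form (C022R085) was at -0.91 and was not called. B-cell linker protein, a signalling protein of B cells, was called higher at 1.02. Over the 5 B cell markers (these 4 and the linker protein), 3 called higher and 1 lower, the summed Cy5 signal was 3384 to 4525 in D and 1734 to 3226 in Ws, and the part of B cells in these results was not tested.

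Lipid metabolism had 24 tested spots, with 5 called higher and 4 lower in D (20.8% and 16.7%, against 33.5% and 13.3% of all described oligos) and a median log2 fold change of -0.06. Fatty acid elongase 6 was called higher at 2.21 (SE 0.41, adjusted p = 0.0011), and the mitochondrial trifunctional enzyme subunit beta of beta-oxidation (1.14), 7-dehydrocholesterol reductase, the last step of cholesterol synthesis (1.03), and sphingomyelin phosphodiesterase 4 (1.14) were called as well. Apolipoprotein A-I-2 (C205R096), a main protein of high-density lipoprotein, was at 1.00 to 2.34 in D (median 2.10), against -0.56 to 0.35 in Ws (median 0.04), a log2 fold change of 1.95 (SE 0.25, adjusted p = 4.63e-06). Lower in D beside acyl-CoA-binding protein were both spots of lipoprotein lipase, the enzyme that frees fatty acids from circulating triglyceride, each at -1.73. For lipoprotein lipase C227R073 the D fish were between -2.98 and -1.32 (median -1.92) and the Ws fish between -1.23 and 0.34 (median -0.16; SE 0.29, adjusted p = 0.000273). Sterol regulatory element-binding protein 1 (C098R149), a transcription factor of lipid synthesis, was at -1.40 to -0.49 in D (median -0.99) and at 0.11 to 0.97 in Ws (median 0.37), a log2 fold change of -1.45 (SE 0.30, adjusted p = 0.00219). Fatty acid desaturase 2 had an adjusted p of 0.00674 and stayed just under 2-fold.

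Carbohydrate metabolism had 9 tested spots, 5 called higher and 0 lower in D (55.6% and 0%, against 33.5% and 13.3% of all described oligos). The median log2 fold change was 1.00, with 6 higher and 2 lower at an unadjusted p of at most 0.05 by limma's test. Besides GDP-L-fucose synthetase, glucosamine-fructose-6-phosphate aminotransferase (1.53), which opens the path to amino sugars, the muscle type of 6-phosphofructokinase (1.08), a control point of glycolysis, UDP-glucose 4-epimerase (1.01) and NADP-dependent malic enzyme (1.00), which yields NADPH, were called. Apart from the synthetase and the aminotransferase, these values lie near 2-fold, and the list had 2 calls without D replicate 4 and 3 without Ws replicate 5. The cytoplasmic (0.62) and mitochondrial (-0.15) malate dehydrogenases were not called.

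Nucleotide metabolism and nucleoside transport had 12 tested spots, with 6 called higher and 1 lower in D (median log2 fold change 0.89). These shares were 50% and 8.33%, against 33.5% and 13.3% of all described oligos. With the pair of SLC28A3 spots, cytidine deaminase (1.37), thymidine phosphorylase (1.60) and uridine phosphorylase 2 (1.30), enzymes that break down pyrimidine nucleosides, were higher, and so was amidophosphoribosyltransferase (1.1), the first step of purine synthesis. Deoxycytidylate deaminase (C211R010), which supplies the precursor of thymidylate, was lower, with D at -2.40 to -0.84 (median -1.58) and Ws at -0.94 to -0.29 (median -0.46). Its log2 fold change of -1.02 (SE 0.25, adjusted p = 0.0115) came to between -0.99 and -0.86, short of 2-fold, when D replicate 4 or 6 or Ws replicate 2, 3 or 4 was left out. The 3 spots of nicotinamide riboside kinase 2 were not called (0.28 to 0.68).

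Energy generation had 17 tested spots of 20, with 5 called higher and 2 lower in D (29.4% and 11.8%, against 33.5% and 13.3% of all described oligos). The median log2 fold change was 0.62, against 0.60 over all described oligos, so the list was close to the described oligos as a whole. Cytochrome c (C010R151), the electron carrier of the respiratory chain, was at 0.93 to 2.32 in D (median 1.59), against -1.19 to 1.37 in Ws (median 0.17), so that the groups overlapped. It was called at a log2 fold change of 1.64 (SE 0.36, adjusted p = 0.00389). Subunit 4 isoform 2 of cytochrome c oxidase was called at 1.26 (SE 0.36, adjusted p = 0.0272), and of the pair of spots for NADH-ubiquinone oxidoreductase chain 2 (ND2) 1 was called at 1.04 and the other, at 0.48, was not. The spot of mitochondrially encoded ND5 (C115R035) was lower in D, at -1.80 to -0.74 (median -1.22), against 0.11 to 1.06 in the 4 Ws fish with a value (median 0.17), with a log2 fold change of -1.63 (SE 0.26, adjusted p = 0.000197). Without D replicate 4 the list had 2 calls higher and 2 lower.

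Ribosomal proteins were split, with 3 called higher and 2 lower in D among 11 tested spots and a median log2 fold change of -0.69. These shares were 27.3% and 18.2%, against 33.5% and 13.3% of all described oligos. 40S ribosomal proteins S5 (2.03), S13 (1.35) and S21 (1.19) were higher. 60S ribosomal protein L39 (C223R066) was at -2.31 to -1.11 in D (median -2.11), against -0.35 to 1.38 in Ws (median -0.01), a log2 fold change of -2.07 (SE 0.27, adjusted p = 9.56e-06), and S27 (-1.22) was also lower. The L39 spot was above the background on 3 of 6 D arrays, and its log2 fold change was between -3.11 and -1.23 over the other settings. RPS21 (C057R085) was at 0.86 to 1.60 in D (median 1.42) and -0.06 to 0.77 in Ws (median 0.06; SE 0.19, adjusted p = 0.000175). Elongation factor 1-beta (C208R038), which recharges the factor that brings tRNA to the ribosome, was at -2.07 to -1.0 in D (median -1.77), against -0.70 to 0.92 in Ws (median 0.27), a log2 fold change of -1.87 (SE 0.25, adjusted p = 1.33e-05).

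Translationally-controlled tumor protein (TCTP), an abundant conserved protein linked to growth, was measured by 8 spots, which all had negative log2 fold changes between -1.19 and -0.72 (median -0.86). Of these, 5 passed the adjusted p, 2 were called lower (25%, against 13.3% of all described oligos) and 0 higher (against 33.5%). The spot with the smallest adjusted p (C097R022) was at -1.89 to -0.17 in D (median -0.95) and at -0.31 to 0.51 in Ws (median 0.30), a log2 fold change of -1.19 (SE 0.24, adjusted p = 0.00199). Over the 7 spots with a value in every fish, D replicates 1 and 3 averaged -1.41 and -1.34, while the other D fish were between -0.55 and -0.09 and the Ws fish between -0.24 and 0.46. Without D replicate 1, D replicate 3, Ws replicate 4 or Ws replicate 5, 1 spot was called, and without both D replicates 4 and 6, 6 were.

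**Figure D4:**
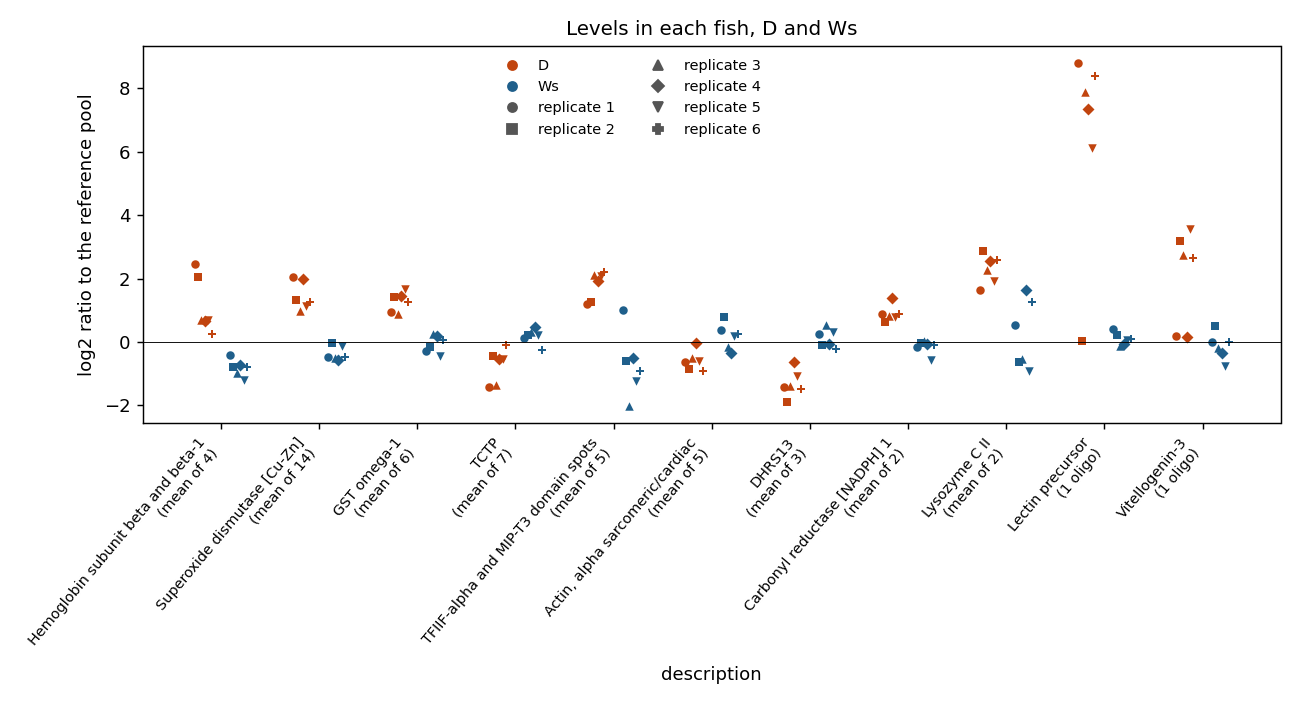
Mean log2 ratio to the reference pool over the oligos of a description, for each D fish (orange, left) and each Ws fish (blue, right), with the replicate number shown by the marker; oligos with a missing value in any of the 12 fish were left out, and the lectin precursor and vitellogenin-3 are single oligos with flagged spots as measured. D replicates 1 and 2 stand above the other D fish in hemoglobin beta, and D replicate 2 stands alone at 0.03 in the lectin precursor.

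Cytoskeletal proteins had 14 tested spots of 16, with 2 called higher and 1 lower in D (median log2 fold change -0.74). These shares, 14.3% and 7.14%, were below the 33.5% and 13.3% of all described oligos. Profilin-2 (C068R073), which binds actin monomers, was at 0.75 to 1.51 in D (median 1.19), against -0.54 to 0.52 in Ws (median 0.09), a log2 fold change of 1.15 (SE 0.25, adjusted p = 0.00389). Alpha-actinin-2 (C139R165), a muscle protein, was lower in D, at -1.53 to -0.22 (median -0.95), against 0.13 to 0.80 in Ws (median 0.60), a log2 fold change of -1.5 (SE 0.33, adjusted p = 0.00408), and was above the background on 3 of 6 D arrays and 5 of 6 Ws arrays. The 6 spots of sarcomeric alpha actin were between -0.86 and -0.60, and none was called by limma's test, while 1 passed the adjusted p alone and 5 were lower at an unadjusted p of at most 0.05. Over these 7 striated muscle markers the summed Cy5 signal was 13656 to 26132 in D and 20695 to 63294 in Ws, and the part of muscle tissue in these results was not tested. Without Ws replicate 3 the list had 2 calls higher and 3 lower.

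Enzymes that act on aldehydes, retinol and foreign compounds had 22 tested spots, with 6 called higher and 5 lower in D. These shares were 27.3% and 22.7%, against 33.5% and 13.3% of all described oligos, and the median log2 fold change was 0.45. Beside epoxide hydrolase 2, the 3 spots of carbonyl reductase 1 were called higher at 1.01 to 1.07. C046R165, the spot with the smallest adjusted p, was at 0.73 to 1.33 in D (median 1.06) and at -0.30 to 0.28 in Ws (median -0.02; SE 0.18, adjusted p = 0.000374). Retinol dehydrogenase 12 (1.52) was higher, whereas UDP-glucuronosyltransferase 2A1 was lower at -2.56 (SE 0.36, adjusted p = 2.57e-05, 4 D fish with a value). All 3 spots of dehydrogenase/reductase SDR family member 13 were lower, at -1.59 to -1.33. For its spot C231R087 the D fish were between -1.83 and -0.90 (median -1.44) and the Ws fish between -0.31 and 0.88 (median 0.21; SE 0.22, adjusted p = 2.24e-05). Cytochrome P450 24A1 (C195R083), which breaks down active vitamin D, was at -2.09 to -0.73 in D (median -1.33), against -0.27 to 0.82 in Ws (median 0.40), a log2 fold change of -1.73 (SE 0.38, adjusted p = 0.00439).

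Proteolysis had 12 tested spots, with 3 called higher and 1 lower in D (median log2 fold change 0.72), below the share over all described oligos in each direction. The 3 were 26S proteasome non-ATPase regulatory subunit 3 (1.24), cathepsin F (1.03), a lysosomal protease, and trypsinogen-like protein 3 (1.03). Cathepsin F (C198R129) was at 0.51 to 1.22 in D (median 1.16) and at -0.30 to 0.39 in Ws (median -0.01; SE 0.20, adjusted p = 0.00173). Its value lies at the 2-fold threshold and went to between 0.97 and 1.00 without D replicates 2 or 6 or Ws replicates 4, 5 or 6. Trypsinogen is made in the exocrine pancreas, and this single marker had a normalised Cy5 signal of 951 to 2657 in D and 512 to 1473 in Ws. The part of pancreatic tissue was not tested. Serine protease 27 (C092R028) was lower, at -3.0 to -2.0 in D (median -2.62), against -0.98 to 0.14 in Ws (median -0.31), a log2 fold change of -2.23 (SE 0.24, adjusted p = 2.03e-07). The 3 spots of proteasome subunit alpha type-6 were not called (0.56 to 0.82), and the list had 1 call higher without Ws replicate 5.

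All 6 spots described by the domains of transcription factor IIF alpha, a general factor of RNA polymerase II, or of the microtubule-binding protein MIP-T3 were called higher in D. Their log2 fold changes were 1.91 to 3.10 (median 2.80), and 33.5% of all described oligos were called higher. C063R163 (TFIIF-alpha) was at 1.59 to 2.71 in D (median 2.15), against -1.69 to 0.62 in Ws (median -0.84), a log2 fold change of 2.93 (SE 0.34, adjusted p = 7.32e-07). C169R119 (MIP-T3) was at 0.70 to 2.47 in D (median 1.60) and at -3.12 to 0.64 in Ws (median -1.05), a log2 fold change of 2.74 (SE 0.39, adjusted p = 4.47e-05). Averaged over the 5 complete spots, the D fish were at 1.21 to 2.21, Ws replicate 1 was at 1.01, and the other Ws fish were between -2.0 and -0.52.

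The list of hepatocyte plasma proteins, which also held alpha-tocopherol transfer protein, had 9 tested spots of 10. Of these, 2 were called higher and 1 lower in D (median log2 fold change 0.67). These shares, 22.2% and 11.1%, were below the 33.5% and 13.3% of all described oligos. Serum albumin 2, the main plasma carrier protein (C121R131), was at 1.47 to 3.01 in D (median 1.69), against -0.51 to 0.64 in Ws (median 0.15), a log2 fold change of 1.87 (SE 0.32, adjusted p = 0.00032). The beta chain of fibrinogen (C070R128), which forms clots, was lower in D, at -2.93 to -0.50 (median -2.32), against -0.28 to 0.33 in Ws (median -0.08; log2 fold change -1.95, SE 0.37, adjusted p = 0.00148), with values in 5 fish of each group. Plasminogen (0.94) and coagulation factor IX (0.62) were not called. All 8 hepatocyte marker spots were above the background on every array of D and Ws, with a summed Cy5 signal of 28711 to 43363 in D and 20110 to 40740 in Ws. The remaining cell type markers were not called by limma's test. These were a cytotoxic and regulatory T-cell molecule (-0.19), intestinal fatty acid-binding protein (-0.92, past the adjusted p alone) and the tested spot of a zona pellucida protein (0.53). Transposable elements had 6 tested spots, with 1 Tcb1 transposase spot called higher (1.24). A Tc1 transposase spot (-1.17) and a LINE-1 reverse transcriptase spot (-1.67) were called lower. The shares called were 16.7% higher and 33.3% lower, against 33.5% and 13.3% of all described oligos. The Tcb1 call (adjusted p = 0.0214) was lost without D replicates 1, 2 or 4 or Ws replicate 4, with adjusted p between 0.0513 and 0.0625.

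**Figure D5:**
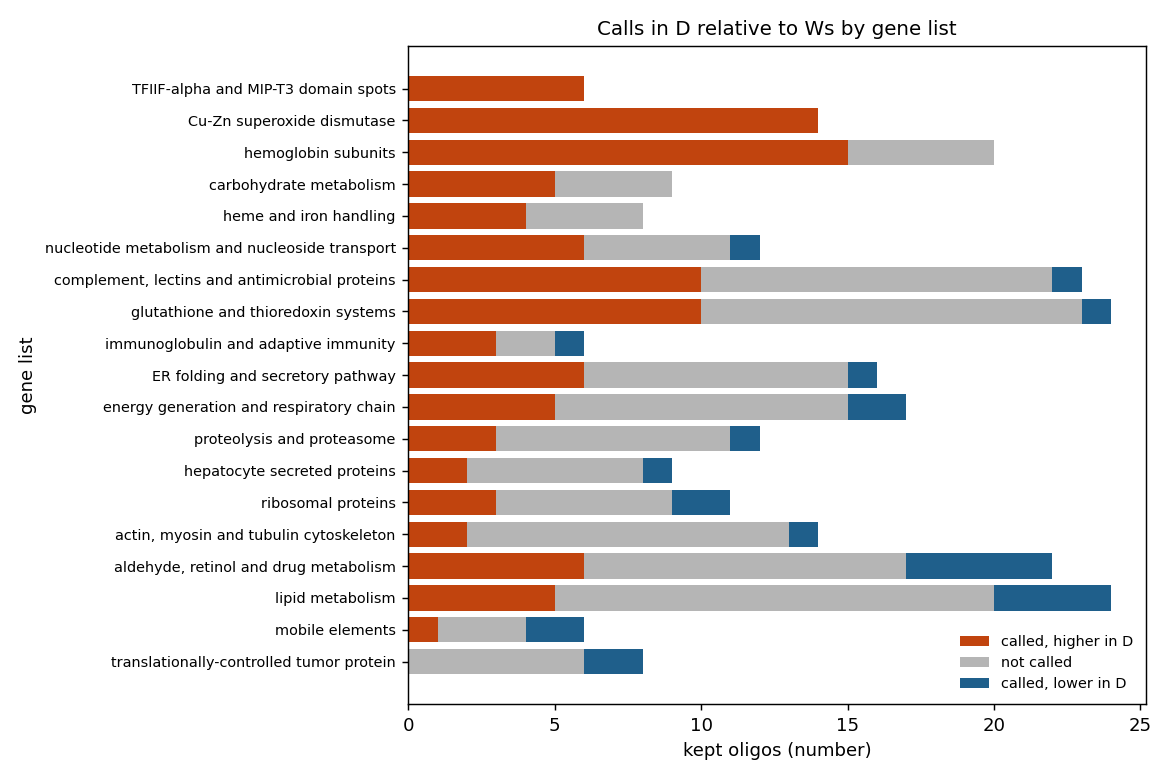
Number of tested oligos in each gene list that were called higher in D (orange), not called (grey) and called lower in D (blue) relative to Ws. All superoxide dismutase and all TFIIF-alpha and MIP-T3 oligos were called higher, whereas none of the 8 TCTP oligos was called higher.

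Called mRNAs outside these lists, which were chosen after their values were seen, included several more with large differences. Calcium/calmodulin-dependent protein kinase type II delta chain was higher in D by 2.95 (SE 0.27, adjusted p = 1.78e-08), with values on both arrays of 3 slides only. Ras-related protein Rab-32, which directs traffic to lysosome-related organelles, was higher by 2.23 (SE 0.38, adjusted p = 0.000278) without overlap. Both spots of peroxisomal membrane protein 2, a channel protein, were called higher at 1.23 and 1.32. All 3 spots of ependymin, a secreted glycoprotein first known from fish brain, were lower at -2.49 to -1.24, and PDZ and LIM domain protein 4 was lower at -2.32 (SE 0.32, adjusted p = 2.19e-05). A spot described as lipocalin precursor (C106R052) was lower at -2.53 with a large error (SE 0.67, adjusted p = 0.0176), while the 3 spots of chondrogenesis associated lipocalin, at -1.32 to -0.96, were not called.

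Wild fish of the same age as D were on the same slides, and their values stand beside those of D and Ws for some of the named mRNAs. The differences of D and of Wa from Ws share the same Ws fish, so these are side-by-side values and not a second test. SLC28A3 (C216R135) had means of 3.48 in D, 0.06 in Wa and -0.27 in Ws, and fucolectin-4 had means of 2.41 in D, 0.22 in Wa and 0.10 in Ws. Superoxide dismutase C116R104 averaged 1.29 in D, -0.62 in Wa and -0.53 in Ws. For LEAP-2 the means were 3.61 in D, 2.30 in Wa and 0.78 in Ws, and for epoxide hydrolase 2 they were 3.07 in D, 2.02 in Wa and 0.30 in Ws, so that in both mRNAs the Wa mean was nearer to D than to Ws. By limma's test, the difference between Wa and Ws was not past the threshold for either (adjusted p = 0.189 and 0.0666). Nor was that between D and Wa (adjusted p = 0.169 and 0.193). For thrombospondin-3b (C066R037) Wa minus Ws was -1.10 (adjusted p = 0.0237) and D minus Wa was -0.74 (adjusted p = 0.0717). For carbonyl reductase 1 (C046R165) these differences were 0.76 (adjusted p = 0.0285) and 0.30 (adjusted p = 0.345). For MIP-T3 C169R119 the Wa mean of -2.76 lay below both D (1.58) and Ws (-1.16), with a log2 fold change of -1.60 between Wa and Ws (adjusted p = 0.0475), and for the Ig mu spot the Wa mean of 1.26 lay above both D (-0.92) and Ws (0.75).

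Of the 301 called oligos, 204 had a description and 184 of these a description other than UNKNOWN, with 132 different descriptions. Among the undescribed or UNKNOWN oligos without overlap, the largest differences were those of C228R013, at 1.41 to 3.02 in D and -0.96 to 1.05 in Ws (log2 fold change 2.31, SE 0.34, adjusted p = 4.25e-05; above the background on 1 of 6 Ws arrays), and C048R101, at 1.70 to 2.52 in D and -0.72 to 0.46 in Ws (2.00, SE 0.23, adjusted p = 7.29e-07). The call of C228R013 was lost with the deposited log2 ratios, at 0.98, and its log2 fold change reached 4.42 under normexp with no offset. In the other direction they were C155R112, at -2.29 to -1.15 in D and -0.76 to 1.26 in Ws (-1.62, SE 0.38, adjusted p = 0.00749), and C143R028, at -2.07 to -1.21 in D and -0.33 to 0.45 in Ws (-1.46, SE 0.32, adjusted p = 0.00394). Spots whose names hold a RefSeq accession could be named without the study's descriptions. Of these, 22 were tested, 1 called higher and 2 lower. Of the 102 that the study had not listed as different between these fish, 19 were tested. That choice favours few calls. Of the 19, 0 were called higher, against 2.42% of all tested oligos. Heat shock transcription factor 1a (hsf1a) was called lower in D at -1.0 (limma, adjusted p = 0.0186). It was 1 of the 19 (5.26%), against 1.02% of all tested oligos. At an unadjusted p of at most 0.05 by limma's test, 0 of the 19 were higher and 5 lower. Their median log2 fold change was -0.09.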

How the data were processed

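Liver RNA of individual trout (Cy5) was hybridised with a reference pool (Cy3) on a salmonid oligo array, and the authors deposited the intensity of each spot, as mean signal and median local background in both channels, not normalised. Log2 ratios deposited by the authors, LOWESS-normalised and centred per oligo, served as an alternative only. Their scale was checked against the rebuilt ratios (r between 0.867 and 0.926 on a D or Ws array, across oligos). The study's own fold changes and p-values were not used.

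With limma 3.58.1 under R 4.3.3, the normexp method (offset 50) removed the background and loess normalised the ratios within arrays, giving the 1531 control spots no weight. Neither the labels nor the methods define the quality flag. It was taken as low quality and set to missing, except on saturated spots, which all carry it and were kept. Tested oligos had values in all groups and, in some group, an unflagged or saturated Cy5 signal of 300 or more on each of the 6 arrays. limma's test was fitted over all 24 arrays in 4 groups. The test was also run on simulated data. Array-level measures were compared by exact permutation tests. Precision is limited by the number of arrays.

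The replicate number was taken to mark the slide, and the values do not settle whether it does. D and Ws fish of the same number did not deviate together (r between -0.05 and 0.12, mean 0.0095, against a mean of -0.0019 for other pairs). The slide block was therefore an alternative. Deviations of D replicates 4 and 6, whose titles share a fish code, correlated at -0.20 (other D pairs -0.31 to -0.09), and both were kept as separate fish.

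The members, gene lists, tests and alternatives were chosen with earlier results of these data known. Named mRNAs were the 12 called in each direction with the largest log2 fold change without overlap (1 per description), the called oligo with the smallest adjusted p of each list and direction, and the 2 largest undescribed oligos in each direction; families of 3 or more oligos are given by ranges. Other list members were named after their values were seen. Gene symbols for 105 of 112 accession-named spots came from RefSeq (assembly USDA_OmykA_1.1). Plots used matplotlib 3.10.9 under Python 3.11.15.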

Additional observations from a re-analysis of the deposited data

Results flagged for a closer look

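Among the named mRNAs, 97 groups of 6 values were tested for a fish that stood apart from the rest of its group (Dixon's rule), and 7 values did, from 5 fish, where chance alone gives about 1 in 20 groups. In D, TXNDC12 (C228R060) was at -2.46 in replicate 1, against -1.31 to -0.69 in the other D fish. The Ig mu membrane form (C237R012) was at 0.27 in D replicate 5, against -1.46 to -0.95 in the others, so that this fish had a level within the range of Ws. Cathepsin F (C198R129) was at 0.51 in D replicate 5, against 0.98 to 1.22 in the others. RPS21 (C057R085) had a fish apart in each group, D replicate 4 at 0.86 (others 1.36 to 1.60) and Ws replicate 5 at 0.77 (others -0.06 to 0.23), and these 2 fish lay closest to each other across the groups. In Ws, thrombospondin-3b (C066R037) was at -0.39 in replicate 5 (others 0.50 to 0.90), and alpha-actinin-2 (C139R165) was at 0.13 in replicate 6 (others 0.56 to 0.80). Each of these values lay on the side of the other group except TXNDC12 in D replicate 1, which lay farther from it. What sets these values apart was not tested.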

How the results depend on the processing

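The 301 oligos called in D relative to Ws became 184 with no background correction, 97 of 4334 tested with signal on all 24 arrays, 133 of 5254 with signal on all arrays of both D and Ws, 458 of 43569 with no filter, and 638 with the adjusted p and no fold change. The stricter filters test fewer oligos; the cause of the fall without background correction was not tested. Leaving out 1 fish gave 256 (without Ws replicate 5) to 354 calls (without D replicate 5). The other settings gave 205 to 354 calls, among them 216 with the methods' ANOVA and Tukey's p, 237 without both D replicates 4 and 6 (added after the data were seen), and 309 with the slide as a replicate block, which changed no call of a named mRNA. The share of calls higher in D was 70.4%, 66.9% to 71.8% with 1 fish left out, and 61.4% without the fold change. Of 1335 log2 fold changes of the 52 named mRNAs over 27 settings, 1288 stayed on their side of both thresholds, 47 (13 mRNAs) no longer passed, and 0 changed sign. The named mRNAs were chosen because they were called in the main setting, so this count is in part set by that choice. Only 13 of the 52 could be tested with signal on all 24 arrays, and 22 with signal on all arrays of both D and Ws. With the methods' test C155R112, C143R028, CYP24A1 and Tcb1 had adjusted p between 0.0579 and 0.0822. Under the filter on all 24 arrays, 0 hemoglobin spots were left to test, and with flagged spots kept as measured 34 of 35 were called. Most spots lay near the local background, which limits low levels in either group.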

Other observations

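Among the 50 described spots that did not pass the filter, 41 were bright enough but under the quality flag and 9 were dim. The following were chosen after their values were seen, and their values are those with flagged spots as measured and no filter. A lectin precursor spot (C222R099) was at 8.79, 0.03, 7.89, 7.33, 6.12 and 8.40 in D replicates 1 to 6, with 4 of the spots saturated, against -0.13 to 0.40 in Ws, where it was above the background on 1 of 6 arrays. D replicate 2 thus had a level like that of Ws, and the other 5 D fish were far above it. Vitellogenin-3 (C042R127), a yolk protein precursor that fish liver makes under estrogen, was at 3.18, 2.73, 3.58 and 2.66 in D replicates 2, 3, 5 and 6 and at 0.19 and 0.15 in D replicates 1 and 4, against -0.77 to 0.51 in Ws. Transglutaminase 2 (C091R052) divided the D fish in another way, with 3.01, 2.87 and 3.13 in replicates 2, 4 and 5 and 0.83, 0.57 and 0.74 in replicates 1, 3 and 6, against -1.08 to 0.61 in Ws. FAM82B (C052R107) was at 1.16 to 2.28 in D and -0.71 to 0.48 in Ws, and transketolase (C201R100), of the pentose phosphate path, at -1.81 to -0.84 in D and -0.42 to 2.03 in Ws, both without overlap. The FAM82B spot was under the quality flag on 6 of 6 D and 3 of 6 Ws arrays. The transketolase spot was above the background on 2 of 6 D and 4 of 6 Ws arrays. The transglutaminase 2 spot was so on 3 of 6 D and 1 of 6 Ws arrays, and the vitellogenin-3 spot on 6 of 6 and 2 of 6.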
